A study of Drosophila melanogaster with 8 samples.

Results

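The genes described here encode parts of the sarcomere, the contractile unit of striated muscle, in RNA from imaginal discs of Drosophila melanogaster larvae. They were chosen by name: rows of the count table whose FlyBase identifier has the symbol Act57B, Act87E, Mhc, Mlc1, Mlc2, Tm2, up, wupA, Prm or TpnC25D. Of these 10 symbols 8 matched a row, out of 15348 genes in the table. The myosin heavy chain gene Mhc and the troponin I gene wupA had no matching identifier and were not analysed here. Rows whose identifier had no symbol in the tables used numbered 709, and whether any of them stands for Mhc or wupA was not settled. All 8 matched genes had counts in every library, the fewest being 8, and all 8 were among the 10029 genes considered, those that reached at least 1 CPM in at least 1 library, where CPM is the count scaled to the TMM-normalized library size.

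In a sarcomere, thick filaments of myosin pull on thin filaments of actin. Each muscle myosin head carries an essential light chain (Mlc1) and a regulatory light chain (Mlc2), and paramyosin (Prm) lies in the core of invertebrate thick filaments. Thin filaments carry tropomyosin (Tm2) and the troponin complex, in which troponin T (up, upheld) binds tropomyosin and troponin C (TpnC25D is 1 of several genes for it) binds the calcium that starts contraction. Act57B and Act87E are muscle actin genes. An imaginal disc is a sheet of epithelium that forms adult structures such as the eye, antenna or wing, and it holds no differentiated larval muscle, while the body wall around it does.

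There were 8 groups with 1 library each, made from discs of wandering larvae of the last instar, pooled from 50 to 60 animals per genotype. In 7 groups the discs were eye-antennal and mosaic. All 7 carried eyflp, a FLP recombinase driven in the eye, act>y+>Gal4, UAS-GFP and an FRT82 chromosome with e and tub-GAL80, so that recombination made clones of cells free of the GAL80 repressor, in which Gal4 acted. The late tumour (11 days after egg laying) and the early tumour (7 days) had UAS-Ras[V12], an always-active Ras, in clones on an FRT82 chromosome with e and the scrib 2 allele, a loss of the polarity gene scribble. The RasV12 scrib BskDN group (6 days) had these changes and UAS-BSK[DN], a dominant-negative form of the Jun N-terminal kinase (JNK) Basket. The scrib BskDN group (6 days) had scrib 2 clones with UAS-Bsk[DN], the BskDN group (11 days) UAS-Bsk[DN] alone and the RasV12 group (5 days) UAS-Ras[V12] alone. The remaining group, scrib wing (6 days), was labelled as wing discs of scrib[2]/scrib[1] animals, mutant throughout, and carried none of the clone tools; the dissection protocol, shared by all samples, names eye-antennal discs only. Control (5 days) had clones with no transgene other than GFP. Cells outside the clones were part of every mosaic disc.

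Libraries held 17152279 to 21027972 counts assigned to genes, so that 1 count was worth 0.0473 to 0.0605 CPM. With 1 library per group, no difference could be set against a spread between replicates and no test across genes was possible. The text calls a gene lower or higher where its log2 CPM, computed with a prior count of 2, differed by 4-fold or more and the higher library reached 5 CPM. Intervals are exact 95% intervals that cover counting error only, so that they compare libraries and not genotypes. Eye genes fitted the eye-antennal labels, in that 5 retinal determination genes (ey, toy, eya, so and dac) summed to 469 to 1120 CPM in the 6 mosaic libraries other than control and to 1060.5 CPM in control. The same sum was 206 CPM in scrib wing. In these bulk samples, fewer cells of a type and less RNA per cell cannot be told apart.

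Together the 8 genes took 0.0110% of the assigned counts in the late tumour (95% interval 0.0105 to 0.0114%), 0.0126% in the RasV12 scrib BskDN library and 0.0117% in BskDN. They took 0.0256% in RasV12, 0.0454% in the early tumour, 0.0512% in scrib BskDN and 0.0501% in scrib wing. In control they took 0.496% (0.493 to 0.499%), or 91807 counts. The summed level was thus between 108 and 519 CPM in the other libraries and 4931 CPM in control. Every one of the 8 genes had its highest level in control, apart from the next library by more than counting error.

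**Figure D1:**
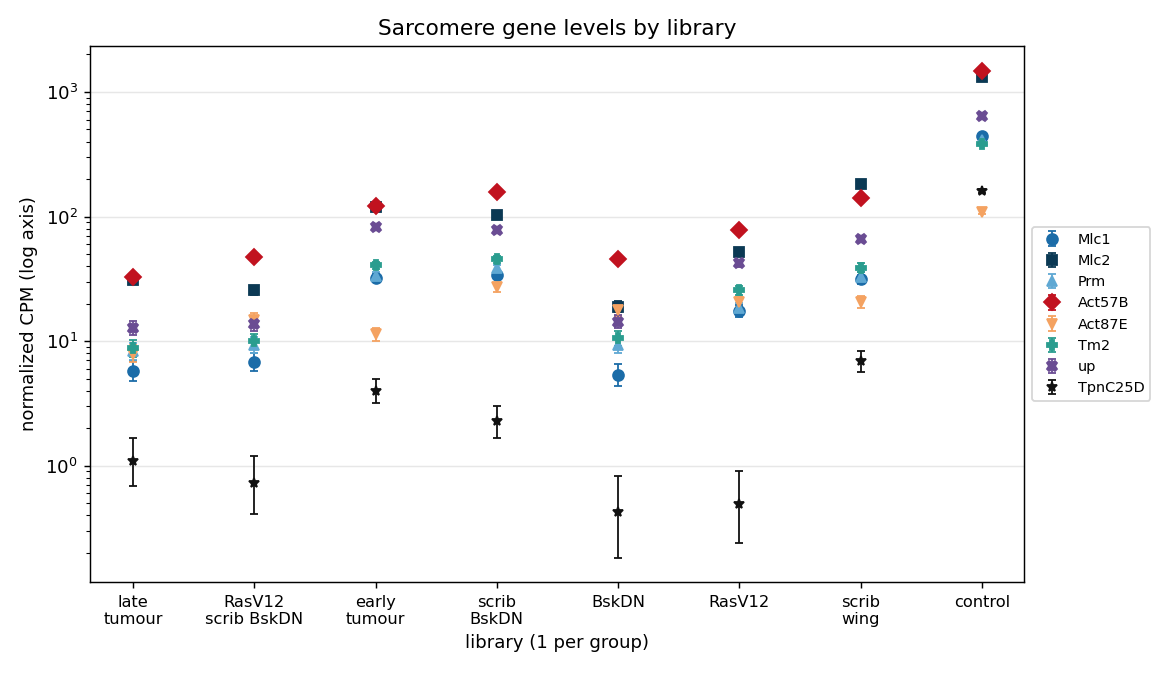
Normalized CPM of the 8 sarcomere genes (vertical axis, log scale) in the 8 libraries (horizontal axis), with exact 95% Poisson intervals as bars. The lowest point is TpnC25D in BskDN, at 0.424 CPM, and all 8 genes are highest in control, for example Act57B at 1474 CPM.

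Mlc2 (FBgn0002773, 3R:30171438-30174551 in the BDGP6 annotation), the regulatory light chain, had 30.9 CPM in the late tumour, 25.5 CPM in the RasV12 scrib BskDN library, 120.0 CPM in the early tumour, 102 CPM in scrib BskDN, 18.9 CPM in BskDN, 51.7 CPM in RasV12, 182 CPM in scrib wing and 1306 CPM in control. Control was highest by far, scrib wing came second, and BskDN was lowest. Relative to control the level was 69.0-fold lower in BskDN (62.2 to 76.9) and 10.9-fold lower in the early tumour (10.4 to 11.3), the extremes among the 6 mosaic libraries set against control.

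Mlc1 (FBgn0002772, 3R:27657078-27660177), the essential light chain, had 5.79 CPM in the late tumour, 6.83 CPM in the RasV12 scrib BskDN library, 32.3 CPM in the early tumour, 33.9 CPM in scrib BskDN, 5.35 CPM in BskDN, 17.5 CPM in RasV12, 31.3 CPM in scrib wing and 442 CPM in control. Below control the values fell into a high set of 3 libraries (scrib BskDN, early tumour, scrib wing) and a low set of 3 (RasV12 scrib BskDN, late tumour, BskDN), and within each set neighbouring levels were not apart beyond counting error. Mlc1 was 82.5-fold lower in BskDN than in control (67.8 to 101) and 13.0-fold lower in scrib BskDN (12.1 to 14.1).

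Prm (FBgn0003149, 3L:8732858-8745310), paramyosin, had 8.33 CPM in the late tumour, 9.35 CPM in the RasV12 scrib BskDN library, 33.4 CPM in the early tumour, 38.5 CPM in scrib BskDN, 9.38 CPM in BskDN, 18.3 CPM in RasV12, 33.0 CPM in scrib wing and 413 CPM in control. The order was that of Mlc1 apart from the 3 lowest libraries, whose neighbours did not differ beyond counting error. Prm was 49.6-fold lower in the late tumour than in control (42.5 to 58.2).

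Of the thin filament genes, Act57B (FBgn0000044, 2R:20944021-20946431) had the highest level per kilobase of annotated exon in each library. It had 32.9 CPM in the late tumour, 47.3 CPM in the RasV12 scrib BskDN library, 121 CPM in the early tumour, 158 CPM in scrib BskDN, 45.8 CPM in BskDN, 77.6 CPM in RasV12, 141 CPM in scrib wing and 1474 CPM in control. RasV12 scrib BskDN and BskDN were the only neighbours in this order that did not differ beyond counting error, with a ratio of 1.03 (0.942 to 1.13). Act57B was 44.8-fold lower in the late tumour than in control (41.4 to 48.4) and 9.32-fold lower in scrib BskDN (8.99 to 9.67).

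Act87E (FBgn0000046, 3R:13425983-13428375), the other muscle actin gene, varied least. It had 7.93 CPM in the late tumour, 14.9 CPM in the RasV12 scrib BskDN library, 11.3 CPM in the early tumour, 27.0 CPM in scrib BskDN, 17.8 CPM in BskDN, 20.6 CPM in RasV12, 20.6 CPM in scrib wing and 109 CPM in control. Its order differed from that of the other 7 genes, since the early tumour stood second lowest and RasV12 the third highest. Its fold below control ran between 4.02-fold (3.66 to 4.41) in scrib BskDN, just inside the 4-fold limit at a log2 difference of -2.001, and 13.7-fold (11.6 to 16.2) in the late tumour. The coding parts of Drosophila actin genes are nearly alike, and reads that aligned to several places were not counted, so that counts of both actin genes are uncertain. In the annotation snoRNA:660, on the same strand, covers 5.57% of the exon bases of Act57B, and lncRNA:CR45591, on the other strand, 3.02% of those of Act87E.

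Tm2 (FBgn0004117, 3R:15310193-15315197), muscle tropomyosin, had 8.78 CPM in the late tumour, 9.98 CPM in the RasV12 scrib BskDN library, 40.5 CPM in the early tumour, 45.4 CPM in scrib BskDN, 10.6 CPM in BskDN, 25.6 CPM in RasV12, 39.0 CPM in scrib wing and 382 CPM in control. The troponin T gene up (FBgn0004169, X:13593474-13602578) had 12.8 CPM in the late tumour, 13.7 CPM in the RasV12 scrib BskDN library, 82.9 CPM in the early tumour, 78.4 CPM in scrib BskDN, 14.3 CPM in BskDN, 42.2 CPM in RasV12, 66.2 CPM in scrib wing and 645 CPM in control. In both genes the late tumour, RasV12 scrib BskDN and BskDN formed the bottom 3, with neighbours that were not apart beyond counting error, and RasV12 stood alone above them. The gene up was 50.5-fold lower in the late tumour than in control (44.6 to 57.4), and Tm2 was 43.5-fold lower (37.4 to 50.8).

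TpnC25D (FBgn0031692, 2L:5216701-5219053), a troponin C gene, varied most, with its highest level 379 times its lowest. It had 1.10 CPM in the late tumour, 0.726 CPM in the RasV12 scrib BskDN library, 4.0 CPM in the early tumour, 2.27 CPM in scrib BskDN, 0.424 CPM in BskDN, 0.497 CPM in RasV12, 6.89 CPM in scrib wing and 161 CPM in control. These rest on 8 counts in BskDN, 10 in RasV12, 15 in RasV12 scrib BskDN and 22 in the late tumour, and neighbours among those 4 levels were not apart beyond counting error. Relative to control TpnC25D was 379-fold lower in BskDN (192 to 878), 323-fold lower in RasV12 (176 to 675) and 40.1-fold lower in the early tumour (32.3 to 50.5). Its interval lay wholly beyond those of the other 7 genes in each of the 6 comparisons over control. The annotation places exons of tkv on the other strand over 4.32% of its exon bases, and with the strand setting of the counts not known, reads of both genes there cannot be told apart.

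Each of the 6 mosaic libraries other than control was set against control. Labelled ages were 6 days in RasV12 scrib BskDN and scrib BskDN, 7 in the early tumour and 11 in the late tumour and BskDN. Only RasV12 shared the 5 days of control, so that genotype and age differ together in the other 5 comparisons. All 8 genes were called lower in each of the 6 mosaic libraries other than control, 48 of 48 pairs of gene and library. Scaled by library totals in place of TMM, Act87E in scrib BskDN was no longer called, at a log2 fold of -1.93, and all other pairs were. Among the 10029 genes considered the share called lower was 3.94% in the late tumour, 3.41% in the RasV12 scrib BskDN library, 4.36% in the early tumour, 3.15% in scrib BskDN, 3.28% in BskDN and 3.27% in RasV12. The median log2 fold of the 8 genes was -5.55 in the late tumour, -5.50 in the RasV12 scrib BskDN library, -3.53 in the early tumour, -3.32 in scrib BskDN, -5.47 in BskDN and -4.37 in RasV12. The median over all genes considered was between -0.02 and 0.06 in these comparisons. The 6 comparisons share the control library, so that its level enters every one of them. Over RasV12, the other library labelled 5 days, none of the 8 genes was called in any of the other 5 mosaic libraries, a choice of library made after the values were seen. The share of all genes called in either direction over RasV12 was 7.02% in the late tumour, 1.83% with RasV12, scrib loss and BskDN together, 3.53% in scrib BskDN and 2.37% in BskDN.

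**Figure D2:**
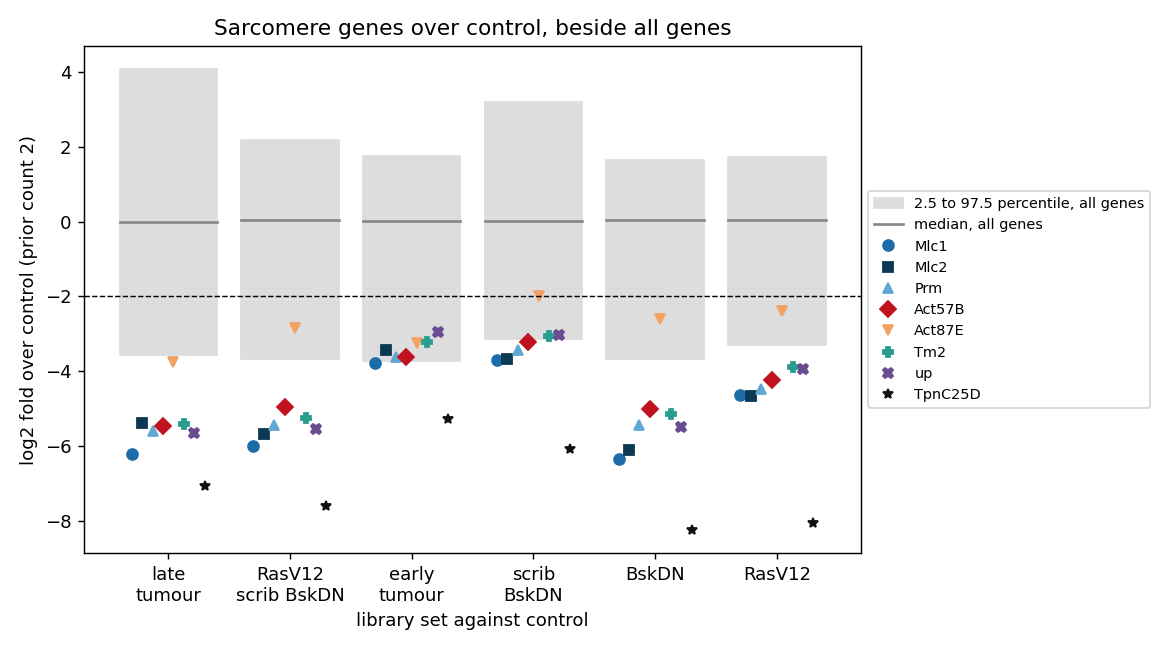
Log2 fold over control (vertical axis, prior count 2) of the 8 sarcomere genes in the 6 mosaic libraries, beside the central 95% (grey) and the median (line) of all 10029 genes considered. The dashed line is the 4-fold limit, which all points pass, Act87E in scrib BskDN (-2.001) by the smallest margin.

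Differences among the libraries other than control were smaller. The late tumour against the early tumour addressed what changes as the tumour ages, at 11 and 7 days. All 8 genes had a lower level in the late tumour and 3 were called, against 0.14% of all genes called lower. With a 2-fold limit 6 were called, against 1.15% of all genes. The troponin T gene up was 6.49-fold (5.69 to 7.43), Mlc1 5.58-fold (4.58 to 6.85) and Tm2 4.62-fold lower (3.92 to 5.46). Prm, at a log2 fold of -1.99, and Mlc2, at -1.95, lay just outside the limit. Act87E was 1.43-fold lower (1.16 to 1.76), and the median log2 fold of the 8 genes was -1.97, against -0.02 for all genes.

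RasV12 scrib BskDN against the early tumour addressed the JNK block in the tumour genotype, at 6 and 7 days, so that the block and age differ together. Of the 8 genes 4 were called lower, against 1.56% of all genes: up 6.07-fold (5.35 to 6.91), Mlc1 4.73-fold (3.94 to 5.71), Mlc2 4.70-fold (4.28 to 5.17) and Tm2 4.06-fold (3.48 to 4.75). TpnC25D was 5.51-fold lower (3.16 to 10.3), and its 4.0 CPM in the early tumour kept it below the 5 CPM that a call needs. Act87E was the single gene with a higher level in RasV12 scrib BskDN, 1.32-fold (1.11 to 1.57). The median log2 fold was -2.12, against 0.03 for all genes.

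The scrib BskDN library against BskDN addressed scrib loss with JNK blocked, at 6 and 11 days, so that scrib loss and age cannot be told apart. Here 5 of the 8 genes were called higher, against 2.7% of all genes: Mlc1 6.33-fold (5.14 to 7.88), up 5.48-fold (4.82 to 6.26), Mlc2 5.40-fold (4.82 to 6.05), Tm2 4.28-fold (3.68 to 5.01) and Prm 4.10-fold (3.48 to 4.86). The median log2 fold was 2.13, against 0.00 for all genes. The early tumour against RasV12, which adds scrib loss to active Ras at 7 and 5 days, gave no call, against 1.45% of all genes called higher and 2.07% called lower. With a 2-fold limit Mlc2 alone was called higher, against 4.01% of all genes. The levels of 7 genes were higher in the early tumour, between 1.55-fold (1.46 to 1.66) for Act57B and 8.06-fold (4.17 to 17.4) for TpnC25D, and Act87E was 1.82-fold lower (1.55 to 2.14). The median log2 fold was 0.87, against -0.01 for all genes. Here too scrib loss and age differ together.

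Summed levels are set out here by labelled age, whose part in them was not tested. The 2 libraries at 11 days, the late tumour and BskDN, had the lowest sums, 108 and 123 CPM. The early tumour, at 7 days and with the genotype of the late tumour, had 445 CPM. RasV12 scrib BskDN and scrib BskDN, both at 6 days, had 128 and 486 CPM. The 2 libraries at 5 days, RasV12 and control, had 254 and 4931 CPM. The scrib wing library, at 519 CPM in sum, was close to scrib BskDN and to the early tumour (445 CPM), although tissue and genotype differ together between it and the others, so that no fold was taken.

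The mix of the 8 genes was then compared between libraries per kilobase of annotated exon, since longer transcripts give more counts. Act57B made up the largest share of the summed CPM per kilobase in each library, between 33.1% in scrib wing and 44.7% in BskDN, with 35.6% in control. By counts the order was reversed in scrib wing, with Mlc2 at 35.0% (34.0 to 36.0%) and Act57B at 27.1% (26.1 to 28.0%). Tm2 kept to 6.06 to 8.11% and Prm to 2.5 to 3.21%. The light chain Mlc2 ranged from 13.9% in BskDN to 32.3% in scrib wing. Act87E made up 2.73% in the early tumour and 15.1% in BskDN, against 2.27% in control, and TpnC25D 0.329% in RasV12 and 2.24% in scrib wing, against 5.35% in control. The shares of Act87E and TpnC25D thus had their lowest and their highest value, in that order, in control.

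**Figure D3:**
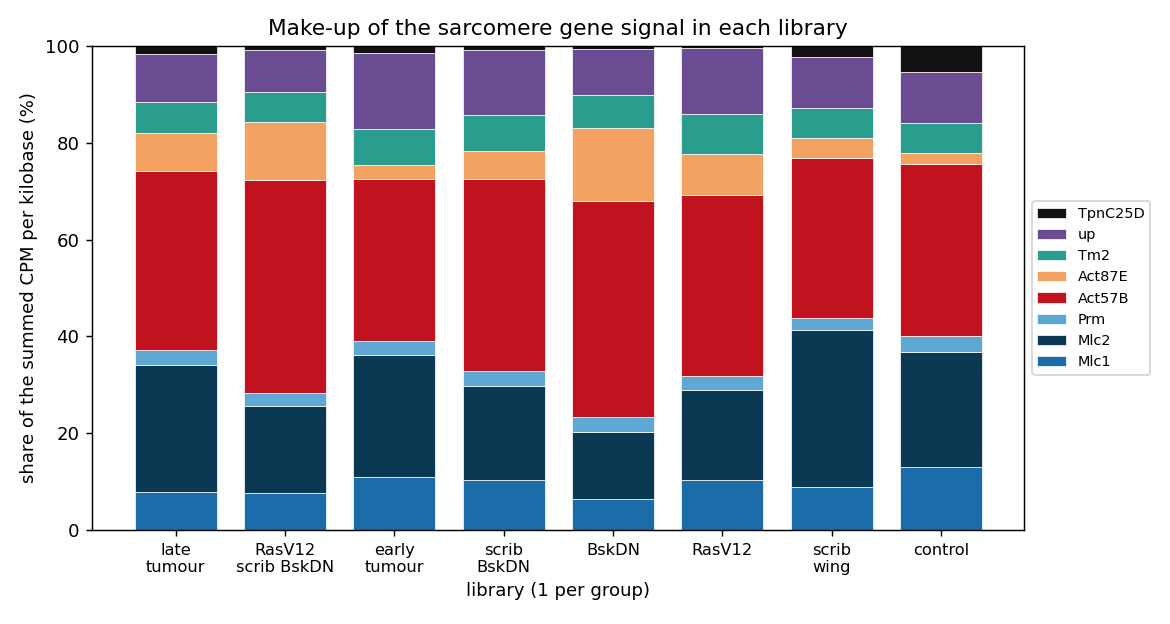
Share of each of the 8 genes in their summed CPM per kilobase of annotated exon (vertical axis, percent), by library. Prm lies between 2.5 and 3.21% and Tm2 between 6.06 and 8.11%, while the share of Act87E is 15.1% in BskDN and 2.27% in control.

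Ratios to Prm, per kilobase, showed the same in single pairs. Tm2 per Prm was highest in RasV12, at 2.86 (2.498 to 3.28), and lowest in control, at 1.89 (1.83 to 1.96). Act57B per Prm was highest in RasV12 scrib BskDN, at 15.7 (13.5 to 18.4), and lowest in control, at 11.1 (10.8 to 11.4). The ratio of up to Prm was 5.25 in the early tumour (4.81 to 5.74) and 3.31 in control (3.21 to 3.40). TpnC25D per Prm was 0.116 in RasV12 (0.0552 to 0.216), 0.896 in scrib wing (0.726 to 1.10) and 1.67 in control (1.60 to 1.74). Act87E per Prm was 5.11 in BskDN (4.25 to 6.17), against 0.708 in control (0.673 to 0.743). The 8 genes thus did not keep a single set of ratios across the libraries.

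Across the 8 libraries the 28 pairs of genes had Pearson correlations of log2 CPM between 0.77 and 0.998, with a median of 0.97. Without the control library, over 7 libraries, they ran from 0.05 to 0.997 with a median of 0.92. Among the 6 genes other than Act87E and TpnC25D the lowest was 0.91 without control. These are descriptions over few libraries that share scaling and depth.

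Muscle forms were also set against the forms that other cells use, with pairs chosen after their values were seen. The 6 actin genes of the fly were all found. Of the counts of these 6, Act57B and Act87E took 0.41% in the late tumour (0.382 to 0.439%). They took between 0.539 and 2.16% in the other libraries apart from control, where they took 15.8% (15.6 to 15.9%). Reads aligned to several places, 14.8% of entries in scrib BskDN and 27.8% in the late tumour, were not counted. Since actin genes are nearly alike, these shares are uncertain beyond counting error. Per kilobase, Mlc2 stood at 0.0461 (0.0413 to 0.0513) of the cytoplasmic regulatory light chain sqh in BskDN and at 3.41 (3.30 to 3.51) of it in control. Mlc1 stood at 0.0131 (0.0108 to 0.0157) of the cytoplasmic light chain Mlc-c in the late tumour and at 1.26 (1.22 to 1.30) of it in control. No gene of the 6 found in the cytoplasmic actin and myosin list was called in a comparison over control. Of all genes, 3.15 to 4.36% were called lower in these comparisons. Act5C lay between 6946 and 9468 CPM in the 6 mosaic libraries other than control and at 6821 CPM in control. The cofilin gene tsr had the widest range of that list, at 899 CPM in the early tumour, with 649 CPM in scrib BskDN, against 1362 CPM in control.

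A list of 18 further sarcomere genes gave 17 in the table, of which 12 reached 1 CPM in a library. Of those 12, 7 were called lower in the late tumour, 8 in the RasV12 scrib BskDN library, 7 in the early tumour, 6 in scrib BskDN, 7 in BskDN and 7 in RasV12, all over control. The share of all genes called lower in these comparisons was 3.15 to 4.36%. The called genes are named here after their values were seen: TpnC47D, Mf, bt, Obsc, Mlp60A and Mlp84B in each of these comparisons, Zasp66 in all but scrib BskDN, and TpnC73F in RasV12 scrib BskDN alone, at 4.82-fold lower. TpnC47D, another troponin C gene, was 121-fold lower in the late tumour (76.4 to 205) and 30.4-fold lower in the early tumour (24.2 to 38.8), at 0.898 and 3.57 CPM against 109 CPM in control. Mlp60A, a muscle LIM protein, was 74.2-fold lower in the late tumour (48.9 to 119). The projectin gene bt, a titin-like protein of the thick filament, had 19.1 to 62.3 CPM in the 6 mosaic libraries other than control and 523 CPM in control. Tm1, whose products include cytoplasmic tropomyosins, had 700.1 to 917 CPM in those libraries and 1245 CPM in control. Its log2 fold over control lay between -0.83 and -0.44, short of a call.

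Some genes of that list, named after their values were seen, kept closer to control. The gene sls, which encodes a titin-like protein, had 104 to 188 CPM in the 6 mosaic libraries other than control and 346 CPM in control, and the tropomodulin gene tmod had 202 to 314 CPM against 274 CPM in control. The list's 5 genes Act79B, Act88F, TpnC41C, TpnC4 and fln, forms used in adult muscle, reached at most 0.499 CPM in the 6 mosaic libraries, 0.423 CPM in scrib wing and 0.376 CPM in control. A floor of 3 counts was worth 0.142 to 0.181 CPM.

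**Figure D4:**
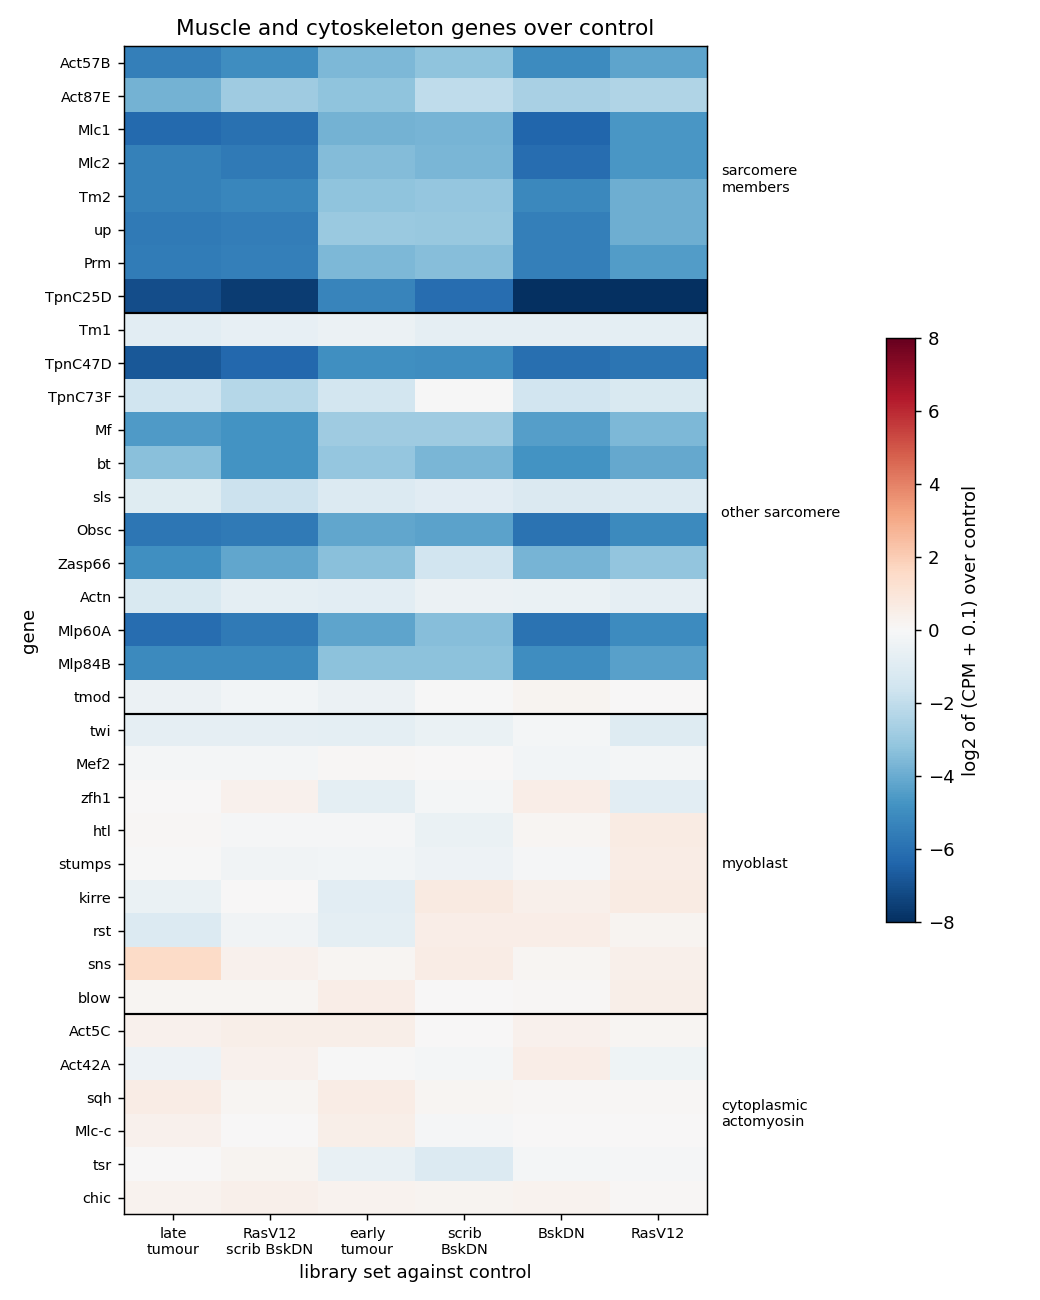
Colour gives the log2 of (CPM + 0.1) over control in 6 mosaic libraries (horizontal axis) for genes of 4 lists with at least 5 CPM in a library (vertical axis). The sarcomere genes and TpnC47D, Mlp60A and bt are lower than control (blue) in each column, while most cytoplasmic actin and myosin genes are near white; the bluest of these is tsr in scrib BskDN.

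Genes of the muscle membrane, calcium handling and energy supply were less uniform. Of the 12 found, 1 to 3 were called lower in each comparison over control, against 3.15 to 4.36% of all genes. In the late tumour and in scrib BskDN 1 was called higher, where 5.94% and 3.11% of all genes were. RyR, the calcium release channel, named after its values were seen, was called lower in all 6, at 1.89 to 8.71 CPM against 44.3 CPM in control. GluRIIC, a subunit of the glutamate receptor at the nerve-muscle junction, was 7.29-fold lower in the late tumour (5.19 to 10.5) and 29.7-fold lower in BskDN (15.4 to 65.7), at 1.95 and 0.477 CPM against 14.2 CPM in control. Argk1, arginine kinase, had 360 to 1123 CPM in the 6 mosaic libraries other than control and 1604 CPM in control. The voltage-gated potassium channel gene Sh was the higher one, 12.7-fold in the late tumour (9.24 to 18.0), and Msp300, a nuclear anchor protein, had 283 to 916 CPM against 733 CPM in control.

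Myoblast genes, from a list of 11 of which 10 were found, did not follow the sarcomere genes. Their median log2 fold over control lay between -0.48 and 0.33 in the 6 comparisons. None was called in any of the 10 comparisons made, which is near the 3.15 to 4.36% of all genes called lower over control. Him, at 1.61 CPM or less, stayed below the 5 CPM that a call needs. The 10 genes summed to 530 to 704 CPM in the 6 mosaic libraries other than control and 590 CPM in control. The muscle transcription factor gene Mef2, named after its values were seen, kept to 54.1 to 65.2 CPM in those libraries and 62.3 CPM in control. By the rule for names, the fusion receptor genes kirre and rst varied most over the 8 libraries among genes that reached 5 CPM, with kirre at 19.7 to 57.7 CPM in those libraries, 7.07 CPM in scrib wing and 35.1 CPM in control. For rst the values were 79.6 to 244 CPM, 43.7 CPM in scrib wing and 167 CPM in control. The adaptor gene blow had 155 to 222 CPM, against 154 CPM in control. Of 5 tendon cell genes none was called lower over control and 1 was called higher in RasV12, where 0.927% of all genes were. The thrombospondin gene Tsp was called higher in the late and the early tumour, where 5.94% and 1.01% of all genes were, at 217 and 222 CPM against 53.2 CPM in control.

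Of 6686 other genes with at least 20 CPM in a library, those whose log2 CPM over the 8 libraries was most like the mean of the sarcomere genes were, by Pearson correlation, Mlp84B (0.998), CG15201 (0.995), an identifier without a symbol in the tables used (FBgn0004028, 0.994), Mlp60A (0.994), CG9297 (0.993), Obsc (0.992), Mf (0.992), TpnC47D (0.981), CG5023 (0.980) and Nplp4 (0.975). Mlp84B encodes a muscle LIM protein, Obsc obscurin, Mf the thick filament protein myofilin and Nplp4 a neuropeptide-like precursor. Mlp84B had 4.84 to 19.5 CPM in the other 7 libraries and 169 CPM in control. Over the 7 libraries without control the same 10 genes had correlations between 0.92 and 0.994. By the same measure TpnC25D was most like CG9297 (0.972), Obsc (0.970) and Mlp84B (0.964). Mlc2 was most like Mlp84B (0.985), CG9297 (0.985) and another identifier without a symbol, FBgn0086783 (0.983). If either identifier without a symbol belonged to Mhc or wupA, it would be a gene named in the choice of members and not a gene outside it. Act57B was most like Mlp60A (0.996), FBgn0004028 (0.995) and Mlp84B (0.993).

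Markers of other cells were read beside the sarcomere genes. Larval cuticle genes, made by the body wall epidermis, were also highest in control: the 10 genes summed to 3.84 to 396 CPM in the 6 mosaic libraries other than control, 31.2 CPM in scrib wing and 4408 CPM in control. Of the 9 that reached 1 CPM, 8 or 9 were called lower in each comparison over control, against 3.15 to 4.36% of all genes. Lcp4 had 0.667 to 116 CPM in those mosaic libraries and 1234 CPM in control. Vajk3 had 0.397 to 5.56 CPM against 714 CPM in control. Among those mosaic libraries the cuticle and sarcomere sums matched in part. The scrib BskDN library was highest in both (396 CPM of cuticle and 486 CPM of sarcomere genes) and the late tumour lowest in both (3.84 and 108 CPM). The early tumour summed to 4.48 and 445 CPM and BskDN to 265 and 123 CPM, in opposite order. RasV12 scrib BskDN had 28.2 and 128 CPM and RasV12 had 9.63 and 254 CPM. In the late over the early tumour no cuticle gene could be called, since none reached the 5 CPM that a call needs. The highest levels there were 0.798 CPM (Lcp4, late tumour) and 1.24 CPM (Vajk1, early tumour). Of the cuticle genes Cpr47Ea was at 0 counts in 3 libraries and Cpr65Av in 2. The part of these cells in the sarcomere levels was not tested.

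Hemocyte markers summed to 476 to 1473 CPM in the 6 mosaic libraries other than control and to 2270 CPM in control. In RasV12 6 of 10 were called lower, against 3.27% of all genes. In each other comparison over control 1 or 2 were, against 3.15 to 4.36% of all genes. PPO2, a prophenoloxidase of crystal cells, had 112 to 475 CPM in those libraries and 847 CPM in control. Other markers went the other way: crq, NimC1 and srp were higher in BskDN than in control, srp at 148 against 70.5 CPM. The level of eater was 104 CPM in BskDN, against 99.7 CPM in control. The sum of the fat body genes was highest in BskDN, at 5871 CPM against 761 CPM in control, of which Fbp1 gave 3641 CPM and Lsp2 1157 CPM, while Lsp1alpha, Lsp1beta and Lsp1gamma were highest in RasV12. The sum of the salivary gland glue genes was highest in RasV12 (1392 CPM), against 43.2 CPM in control, although Sgs1 and Sgs3 were highest in scrib BskDN. The sum of the neuron markers was highest in the late tumour (699.6 CPM), with 656 CPM in scrib BskDN and 250.1 CPM in control. Among them Syt1, brp and, by a small margin, Gad1 were highest in scrib BskDN. Glia markers summed to 560 to 810 CPM in the 6 mosaic libraries and 534 CPM in control. Apart from those cuticle genes, no member of these marker lists was at 0 counts, and their part in the sarcomere levels was not tested.

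**Figure D5:**
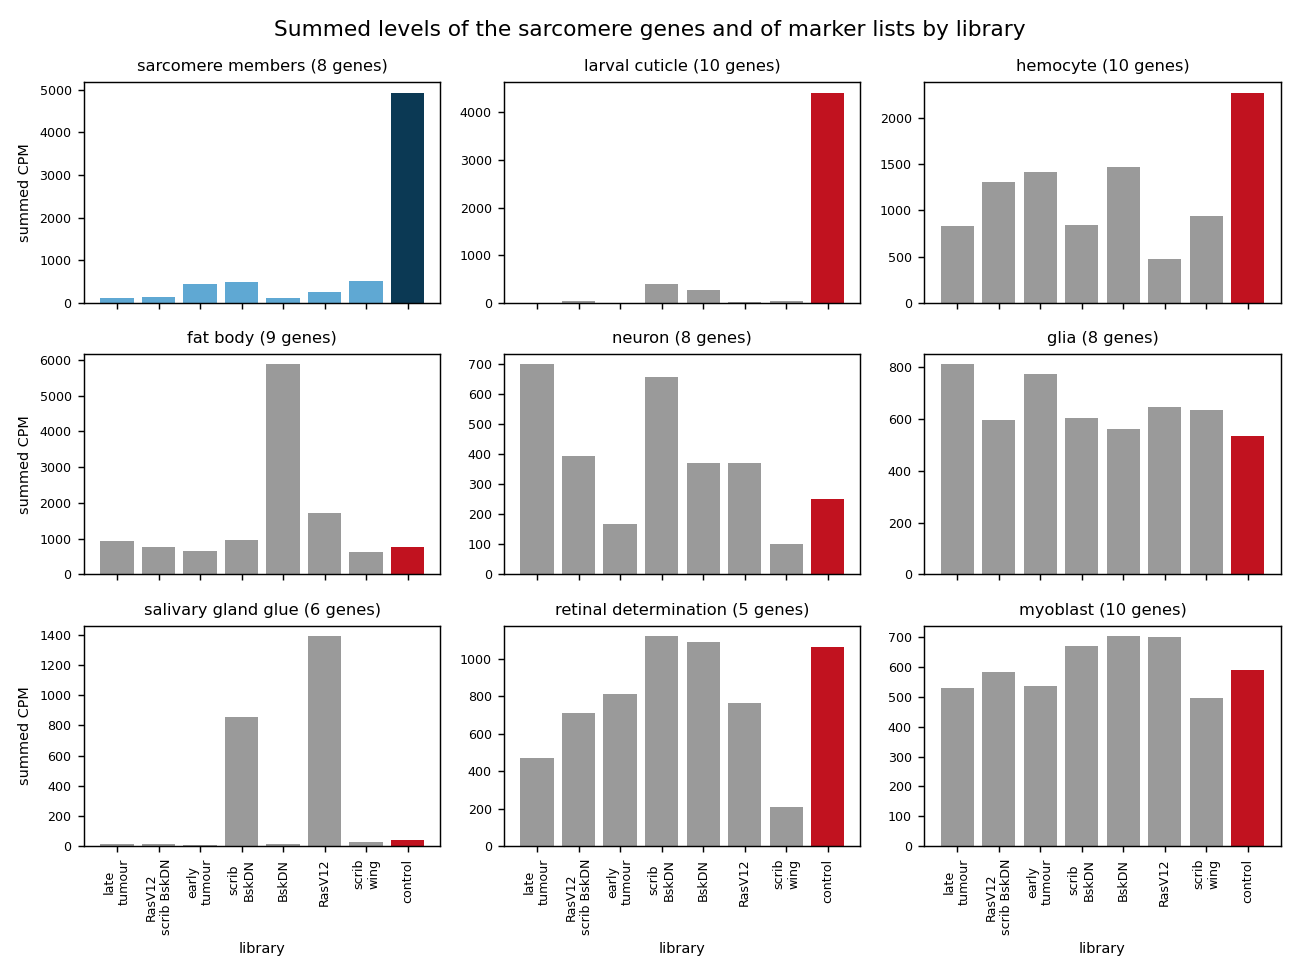
Summed CPM (vertical axes, from 0, each with its own scale) of the 8 sarcomere genes and of 8 marker lists in the 8 libraries, with control in dark blue or red at the right. Sarcomere genes (4931 CPM), larval cuticle genes (4408 CPM) and hemocyte genes (2270 CPM) have their highest bar in control, and the other lists do not.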

How the data were processed

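The authors deposited 1 table of raw counts per gene, with 1 column for each of 8 libraries of disc RNA from larvae raised at 25 °C. Per the submitters' processing notes TopHat2 and HTSeq were used. Versions, build, annotation and strandedness were not given in the sources used here. Tally rows, 5 in number, were left out of the deposited counts: reads aligned to several places, which no gene received, were 14.8 to 27.8% of all entries. Symbols came from gene tables joined by identifier, which named 14639 genes and left 709 without a symbol. Coordinates and exon lengths came from the Ensembl release 115 annotation of BDGP6 and may differ from the build counted.

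Scaling used the TMM factors of edgeR 4.0.16, run in R 4.3.3, over all libraries. Log2 CPM used a prior count of 2, and folds with intervals are ratios of normalized CPM without it, with Clopper-Pearson 95% intervals. Levels have exact Poisson intervals. With 1 library per group no quasi-likelihood test could be fitted. The calling step and the intervals were checked on simulated data. Alternatives were DESeq2 1.42.0 size factors, library totals, a prior count of 0.5, no low-count filter, a 2-fold limit and, added after seeing the data, the RasV12 library in place of control. Of 122 entries in 13 gene lists 114 were found, by symbol or RefSeq synonym. The rule for names beside the members takes at most 4 genes from each other list, the 2 with the largest log2 range among genes that reach 5 CPM and the 2 with the highest level. Others were named after their values were seen: sls, tmod, RyR, Mef2, Him and the adult forms. So were the remaining called genes of the other sarcomere list and the cytoplasmic partners of the members. The hemocyte, fat body, neuron, glue and cuticle genes outside the rule were also named after their values were seen. The retinal list is given whole. The 10 genes most like the mean of the members, and the 3 most like TpnC25D, Mlc2 and Act57B, were sought by the same measure. The members and lists were chosen with earlier results of these data known.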

Additional observations from a re-analysis of the deposited data

Results flagged for a closer look

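Act87E moved in opposite directions under the same genetic change in different backgrounds, with counting intervals that did not include equality, and the difference was not tested, since each library is single. With scrib loss its log2 fold was -0.857 in the early tumour over RasV12 and 0.6 in scrib BskDN over BskDN. With the JNK block its log2 fold was 0.393 in RasV12 scrib BskDN over the early tumour and -2.6 in BskDN over control. All 8 genes were lower than control in every mosaic library set against it, so BskDN over control shares its direction with all those comparisons. The parts of the JNK block, of age and of the single control library in it cannot be told apart. With scrib loss the other 7 genes were higher in both backgrounds. The early tumour and BskDN libraries each enter both of these sets, and labelled ages differ within each comparison.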

How the results depend on the processing

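With 1 library per group no replicate could be left out. No paired analysis was possible because each group has a single library. Under DESeq2 size factors, library totals and a prior count of 0.5 the number of sarcomere genes called stayed within 1.5 times its main value in all 10 comparisons and every median kept its direction. Under library totals 7 in place of 8 genes were called in scrib BskDN over control, Act87E being lost at -1.93, and 4 in place of 3 in the late over the early tumour, as with the prior count of 0.5. The largest change of a single gene's log2 fold was 0.0544 under DESeq2 size factors, 0.138 under library totals and 0.226 under the prior count of 0.5. Library totals moved the median of all genes by 0.13 in scrib BskDN over BskDN. With a 2-fold limit 6 genes were called in the late over the early tumour, and 1 gene (TpnC25D with no low-count filter, Mlc2 with the 2-fold limit) in the early tumour over RasV12. With the RasV12 library in place of control, no gene was called in 5 comparisons (0 each), and the median log2 fold was -1.30 for the late tumour, -0.99 for RasV12 scrib BskDN and -1.11 for BskDN, and turned to 0.873 for the early tumour and 0.965 for scrib BskDN. All calls over control share that 1 library. Shares by counts in place of counts per kilobase differ by construction, for 55 of 64 values by more than the half-width of their counting interval. Depth limits TpnC25D most, at 8 to 22 counts in 4 libraries.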
